A study of Rattus norvegicus with 15 samples.

Results

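Leukocytes that enter the brain and macrophages that live at its borders were followed in dorsal CA1 through 8 genes, listed by name (no threshold on a value chose them, but earlier results of these data were known): S100a8 and S100a9 (neutrophils), Lyz2 and Ccr2 (monocytes), Ptprc (all leukocytes), Cd3e (T cells), and Mrc1 and Cd163 (border macrophages). Of these 8, 7 had values among the 22314 genes of the count table, and Ccr2 is not analysed here. All 7 passed the filter on low counts, which kept 14880 genes. S100a8 and S100a9 passed it only because of the scrambled trained libraries: the filter's level of 0.633 CPM was reached by 0 and 1 of the 5 naive libraries, 2 and 2 of the 5 Rnf20-labelled libraries and all 5 scrambled trained libraries. CPM is a gene's read count divided by the library's TMM-scaled total and put on the usual per-million scale.

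The tissue came from wild-type male Sprague-Dawley rats aged 8 to 9 weeks, and every animal had received an siRNA injection into dorsal CA1. The libraries fall into 3 groups of 5. Naive libraries (replicates 1, 2, 9, 11 and 12) had scrambled Accell siRNA and no training. Scrambled trained libraries (5, 6, 10, 15 and 16) had the same siRNA and were then conditioned, and Rnf20-labelled libraries (4, 8, 14, 18 and 20) had Accell siRNA against Rnf20 before the conditioning. Contextual fear conditioning, in which a place is paired with a shock, took place 5 days after the injection, and the labels give no time from training to dissection. Among the samples there is neither an untrained group with Rnf20 siRNA nor a group without an injection. The cells are labelled as all brain cell types, so each value is an average over the dissected tissue, in which more cells of a type and more RNA per cell cannot be told apart. The labels number the libraries without saying that each is a separate animal, so the p-values reflect variation among these libraries, some of which may be technical.

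Total counts ran from 12537250 to 20644425 per library. Rnf20, the siRNA target, was at 38.3 to 44.6 CPM in the libraries labelled Rnf20 siRNA and at 36.4 to 48.5 CPM in scrambled trained libraries, so its mRNA did not set the groups apart and the group is called by its label. CA1 neuron markers were present in every library, with a summed level of 2535 to 6083 CPM over 6 genes. Scrambled trained replicates 10 and 15 and Rnf20-labelled replicate 18 stood apart on the first principal component (41.0 to 53.5, with 35.7% of the variance), as did Rnf20-labelled replicate 14 at the other end (-49.3). Choroid plexus transcripts were low in scrambled trained replicates 5 and 16 and Rnf20-labelled replicate 20 (12.4 to 87.7 CPM over 8 genes, against at least 802 CPM elsewhere). Fold changes are therefore also given without these libraries.

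Healthy brain tissue holds microglia as its resident macrophages and few other leukocytes. Neutrophils are the first blood leukocytes to reach an injury and carry large amounts of the calcium-binding pair S100A8 and S100A9, which together form calprotectin and signal through Toll-like receptor 4. Monocytes follow, drawn by the chemokines CCL2 and CCL7 through the receptor CCR2, and mature into macrophages. Perivascular and meningeal macrophages are a separate, long-lived population marked by the mannose receptor CD206 (Mrc1) and by CD163, the receptor that takes up haemoglobin bound to haptoglobin. Of the 7 genes, Ptprc and Lyz2 are not limited to cells from the blood, since microglia transcribe Ptprc and activated microglia transcribe Lyz2.

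The stretches of 250 bases before the transcription start are shown for S100a9, Lyz2, Ptprc and Mrc1, which with S100a8 had the largest fold changes after training, and for Cd3e, which had the smallest. They are RefSeq sequences of the GRCr8 assembly, not of the build used for counting, and were matched by symbol for 7 of the 8 genes. S100a8 had no match. Capitals mark GAGGAA, the core of sites for the myeloid factor PU.1, and TTGCNNAA, a pattern of C/EBP sites, each searched on both strands, so that a match may appear as the reverse complement.
S100a9, GRCr8 chr2:178490623-178490872, minus strand: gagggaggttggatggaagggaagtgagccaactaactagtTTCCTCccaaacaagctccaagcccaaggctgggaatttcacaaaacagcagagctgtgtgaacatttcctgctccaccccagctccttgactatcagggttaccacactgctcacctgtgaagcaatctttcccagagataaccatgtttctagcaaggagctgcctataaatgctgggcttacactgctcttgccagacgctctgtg
Lyz2, GRCr8 chr7:54798012-54798261, minus strand: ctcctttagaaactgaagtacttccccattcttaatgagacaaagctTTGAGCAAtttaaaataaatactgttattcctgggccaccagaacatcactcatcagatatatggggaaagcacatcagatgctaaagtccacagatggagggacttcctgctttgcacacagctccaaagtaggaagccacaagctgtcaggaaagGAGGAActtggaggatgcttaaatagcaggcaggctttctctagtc
Ptprc, GRCr8 chr13:52259747-52259996, minus strand: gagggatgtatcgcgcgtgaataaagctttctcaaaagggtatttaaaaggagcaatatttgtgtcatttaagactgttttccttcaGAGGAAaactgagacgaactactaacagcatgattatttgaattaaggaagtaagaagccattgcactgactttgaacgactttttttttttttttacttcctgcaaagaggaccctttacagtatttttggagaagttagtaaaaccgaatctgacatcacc
Mrc1, GRCr8 chr17:82157475-82157724, plus strand: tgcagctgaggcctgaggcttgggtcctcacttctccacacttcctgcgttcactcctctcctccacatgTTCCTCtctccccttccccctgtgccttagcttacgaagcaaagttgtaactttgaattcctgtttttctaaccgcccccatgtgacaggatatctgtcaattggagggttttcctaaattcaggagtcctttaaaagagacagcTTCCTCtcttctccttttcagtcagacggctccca
Cd3e, GRCr8 chr8:54211771-54212020, minus strand: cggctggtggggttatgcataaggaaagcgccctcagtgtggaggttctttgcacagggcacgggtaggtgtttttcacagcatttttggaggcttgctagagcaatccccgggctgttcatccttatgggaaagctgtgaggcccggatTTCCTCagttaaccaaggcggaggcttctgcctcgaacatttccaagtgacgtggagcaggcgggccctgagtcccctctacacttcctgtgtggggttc
The GAGGAA core occurred in 5 of the 7 matched genes, those shown, Cd3e among them, and not in Ccr2 or Cd163, and 23.3% of 33469 rat promoter windows of the same length hold it. TTGCNNAA occurred in 2 of the 7, Lyz2 and Ccr2, and 9.22% of windows hold it. The 2 patterns did not overlap in these windows. Such matches describe letters and do not show binding.

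The neutrophil pair was near the detection limit in naive tissue and present in every scrambled trained library. S100a8 was at 0, 0.35, 0.48, 0.56 and 0.07 CPM in naive replicates 1, 2, 9, 11 and 12, which is 24 reads in all. It was at 0.86, 1.37, 3.46, 1.14 and 1.24 CPM in scrambled trained replicates 5, 6, 10, 15 and 16 (140 reads), and at 0, 4.24, 0, 1.29 and 0.21 CPM in Rnf20-labelled replicates 4, 8, 14, 18 and 20 (85 reads). The scrambled trained libraries were all above the naive ones, and the labelled group held both the highest value and 2 libraries with no read.

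S100a9, the partner of S100a8, gave the same order of groups. It was at 0.26, 0.18, 0.55, 0.75 and 0.21 CPM in the naive replicates in the order above. The values were 1.47, 2.29, 5.40, 1.32 and 1.60 CPM in the scrambled trained replicates and 0.22, 8.13, 0.17, 1.23 and 0.21 CPM in the Rnf20-labelled replicates. Again the scrambled trained and naive libraries did not overlap, while in the labelled group 3 libraries lay at or below 0.22 CPM and replicate 8 held 117 of that group's 146 reads.

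Lyz2 encodes lysozyme of monocytes, macrophages and neutrophils. It was at 61.1, 97.0, 65.7, 75.4 and 97.1 CPM in the naive replicates. It was at 116.7, 92.7, 368, 465 and 155 CPM in the scrambled trained replicates and at 34.6, 174, 29.4, 298 and 111 CPM in the Rnf20-labelled replicates. Scrambled trained replicate 6 lay inside the naive range and the other 4 above it. Rnf20-labelled replicates 4 and 14 lay below every naive library. The close paralogue Lyc2 had at most 16 reads in any library, against 353 to 10171 for Lyz2, and reads shared by these 2 genes could have been counted for either.

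Ptprc encodes CD45, the tyrosine phosphatase on the surface of every nucleated blood-derived cell and, at lower density, of microglia. It was at 10.3, 16.2, 12.1, 18.7 and 17.0 CPM in the naive replicates, and at 12.0, 21.6, 30.8, 56.2 and 22.4 CPM in the scrambled trained replicates. The Rnf20-labelled replicates had 7.81, 21.7, 6.50, 35.7 and 21.0 CPM. The same libraries were high as for Lyz2, with replicate 15 highest, and replicates 4 and 14 of the labelled group were again the lowest of all 15.

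Mrc1, the mannose receptor, was at 3.04, 3.22, 3.21, 5.96 and 3.56 CPM in the naive replicates. It was at 4.47, 5.56, 16.5, 22.7 and 8.27 CPM in the scrambled trained replicates and at 2.77, 10.9, 2.92, 16.6 and 3.33 CPM in the Rnf20-labelled replicates. Of the scrambled trained libraries 3 exceeded every naive library, as did 2 of the labelled group.

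Cd163, the haemoglobin scavenger receptor, was low everywhere, with 4 to 35 reads per library. It was at 0.86, 0.64, 0.85, 0.50 and 0.36 CPM in the naive replicates, 0.25, 0.85, 0.88, 1.60 and 1.42 CPM in the scrambled trained replicates and 0.55, 0.49, 0.42, 0.92 and 0.71 CPM in the Rnf20-labelled replicates. The scrambled trained group held the highest and the lowest of the 15 values, so the groups overlapped.

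Cd3e, the epsilon chain of the T cell receptor complex, followed no group. It was at 6.02, 14.1, 3.45, 10.2 and 19.8 CPM in the naive replicates, 11.6, 19.3, 4.11, 12.0 and 17.1 CPM in the scrambled trained replicates and 7.48, 10.5, 14.8, 7.68 and 9.13 CPM in the Rnf20-labelled replicates. The spread inside the naive group covered the range of every trained library.

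**Figure D1:**
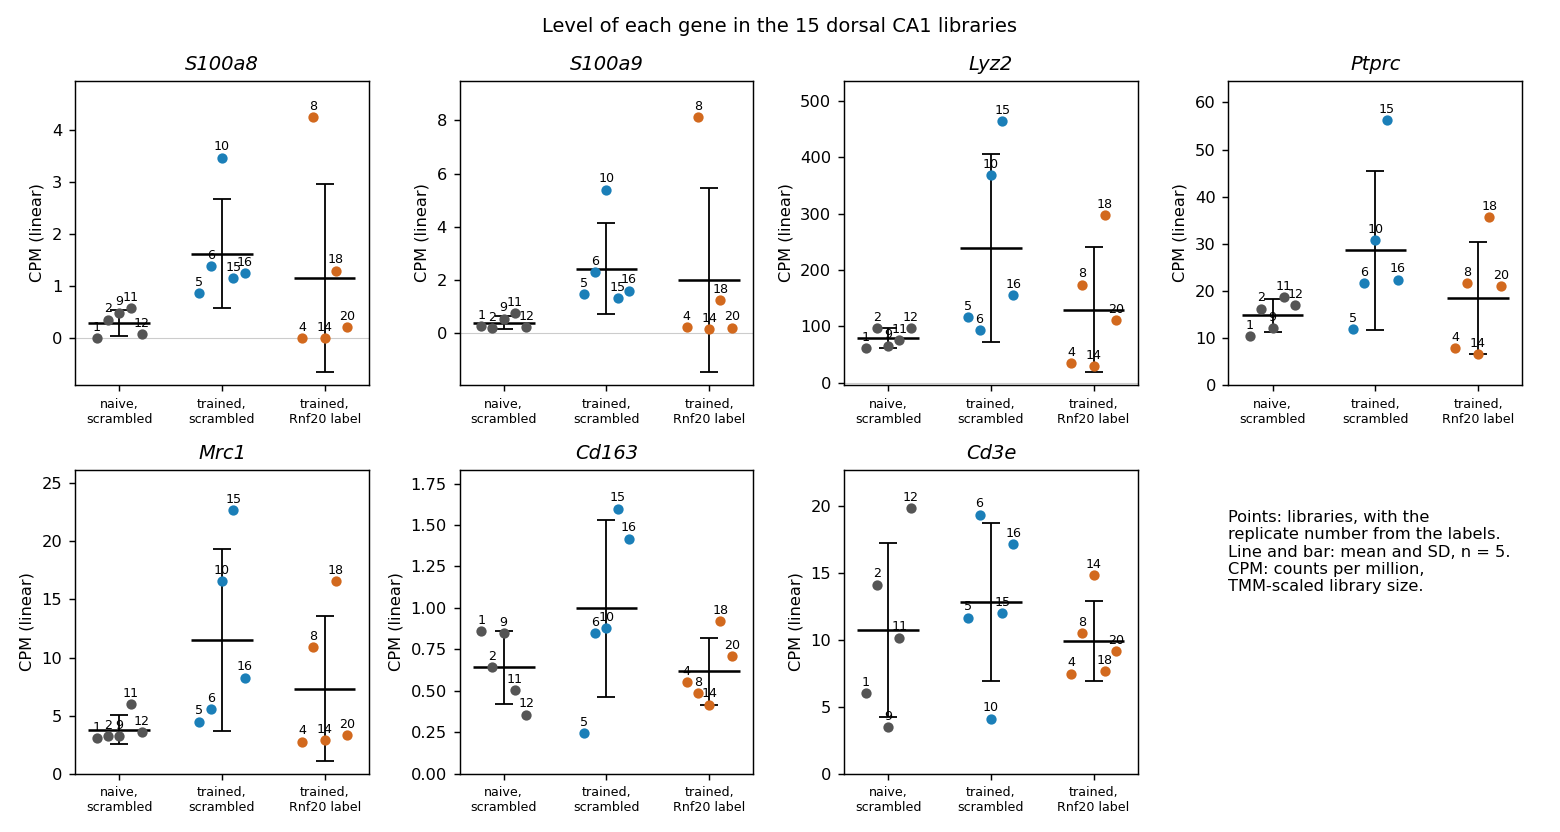
CPM of S100a8, S100a9, Lyz2, Ptprc, Mrc1, Cd163 and Cd3e (vertical axes, linear) in the 3 groups, with each library as a point carrying its replicate number and the mean and SD of 5 libraries in black. For S100a8 and S100a9 all scrambled trained points lie above all naive points, and Rnf20-labelled replicate 8 is the highest of the 15.

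Training under scrambled siRNA was compared with no training to ask which transcripts differ after conditioning. S100a8 averaged 1.62 ± 1.05 against 0.29 ± 0.25 CPM (SD, n = 5 each; log2 fold change 2.39, SE 1.02, 95% interval 0.22 to 4.56) and S100a9 2.42 ± 1.71 against 0.39 ± 0.25 CPM (2.59, SE 0.96, 0.56 to 4.63). Lyz2 averaged 240 ± 167 against 79.3 ± 17.0 CPM (1.60, SE 0.58), Mrc1 11.5 ± 7.84 against 3.80 ± 1.22 CPM (1.60, SE 0.55) and Ptprc 28.6 ± 16.8 against 14.9 ± 3.52 CPM (0.95, SE 0.44). Cd163, at 1.00 ± 0.53 against 0.64 ± 0.22 CPM (0.64, SE 0.40), and Cd3e, at 12.9 ± 5.90 against 10.7 ± 6.51 CPM (0.26, SE 0.42), had intervals that include 0.

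By edgeR's quasi-likelihood test 0 of the 7 passed an adjusted p of 0.05, nor did any gene of the 14880 (0%), so none of these differences is called. The adjusted p-values were 0.394 for Mrc1, 0.411 for Lyz2, 0.412 for S100a9, 0.455 for S100a8, 0.488 for Ptprc, 0.621 for Cd163 and 0.866 for Cd3e. At an unadjusted p under 0.05 there were 5 of the 7 (0.0102 to 0.0461), all higher after training, against 9.97% of all genes tested in either direction and 6.62% in that direction. All 7 fold changes were above 0, as were 47.2% of all genes, and their median was 1.60 against -0.01 over all genes. The groups did not overlap for 2 of the 7, S100a8 and S100a9, and 1.1% of all genes were higher in every scrambled trained than in every naive library. Since these 2 passed the low-count filter only through the group where they were high, nothing is read from that count, and they also enter the other counts over the 7. DESeq2's Wald test called 53 genes in this comparison, limma-voom called 0, and 0 of the 7 were among the calls of either.

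The differences were smaller without the 4 libraries far out on the first component, which kept only scrambled trained replicates 5, 6 and 16 of that group. The log2 fold changes were then 0.63 for Lyz2, 0.69 for Mrc1 and 0.34 for Ptprc, and 1.92 for S100a8 and 2.16 for S100a9, with 0 of the 7 at an unadjusted p under 0.05. Scrambled trained replicates 10 and 15, left out here, were the highest of their group for Lyz2, Ptprc and Mrc1, so smaller values for these genes were fixed by the choice. Replicate 15 was not high for S100a8 and S100a9, so nothing is read from the contrast with the neutrophil pair. Without the 3 libraries of lowest choroid plexus level the fold changes were 1.96, 1.98, 1.29, 2.69 and 2.90 in the same order. That choice kept scrambled trained replicates 6, 10 and 15, so larger values for Lyz2, Mrc1 and Ptprc were likewise fixed by it.

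**Figure D2:**
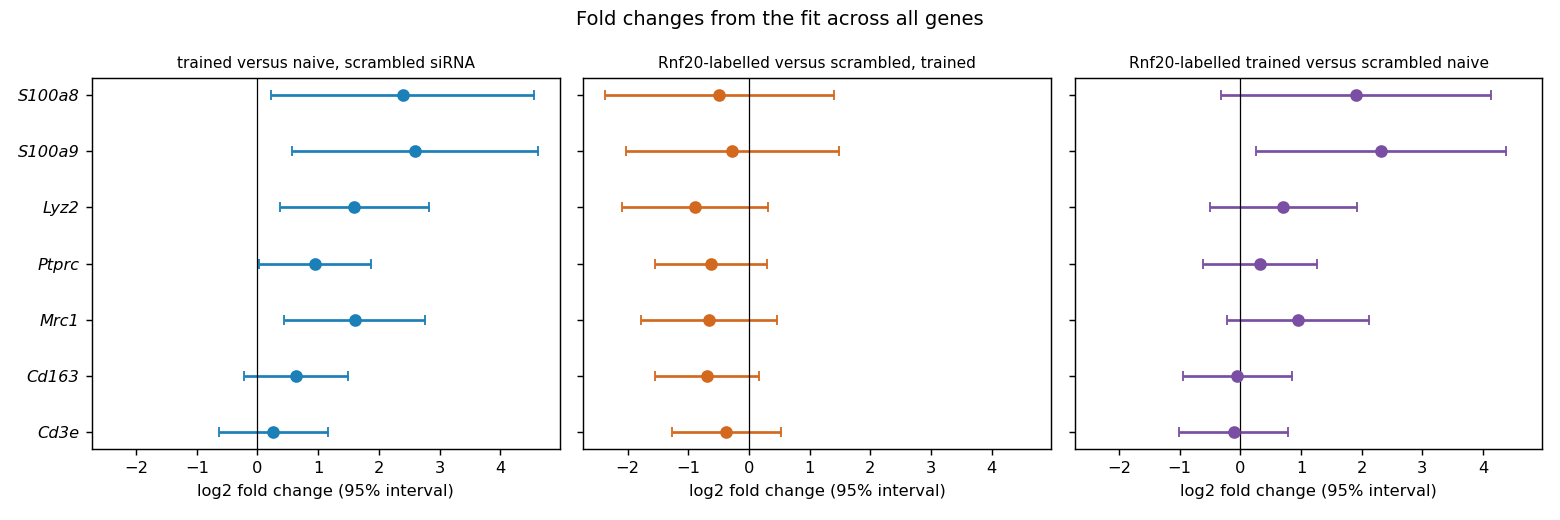
Log2 fold changes (horizontal axes) with 95% intervals for the 7 genes in the 3 comparisons, from the edgeR fit to all 15 libraries. In trained against naive libraries under scrambled siRNA the intervals of S100a8, S100a9, Lyz2, Ptprc and Mrc1 exclude 0 before adjustment, and in Rnf20-labelled against scrambled trained libraries all 7 include 0.

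Trained libraries labelled Rnf20 siRNA were compared with scrambled trained libraries to ask what the knockdown label changes after conditioning. All 7 fold changes were below 0 (50.7% of all genes were above 0), from -0.28 for S100a9 to -0.89 for Lyz2, with a median of -0.63 against 0.00 over all genes. The scrambled trained libraries are shared with the first comparison, where the 7 genes had higher means in them, so opposite signs are partly built in. S100a8 and S100a9 also passed the low-count filter only through that group, and nothing is read from the count of signs. Lyz2 averaged 129 ± 111 CPM in the labelled group (log2 fold change -0.89, SE 0.57, 95% interval -2.09 to 0.32) and Ptprc 18.5 ± 11.9 CPM (-0.63, SE 0.43, -1.55 to 0.30). By edgeR 0 of the 7 and 0% of all genes passed the adjusted threshold (adjusted p 0.832 to 0.961 for the 7), and 0 of the 7 had an unadjusted p under 0.05, against 5.61% of genes in either direction and 2.63% higher in the labelled group. The intervals reach from a decrease to an increase for every gene, so no difference was detectable with this spread. The sign for the neutrophil pair turned on single libraries: without scrambled trained replicate 10 the fold changes were 0.01 for S100a8 and 0.27 for S100a9, and without Rnf20-labelled replicate 8 they were -2.03 and -2.34.

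The labelled trained libraries were also set against naive libraries, which mixes training with the siRNA label and shares its naive libraries with the first comparison. S100a9 averaged 1.99 ± 3.46 CPM (log2 fold change 2.32, SE 0.97, 95% interval 0.26 to 4.37; edgeR adjusted p = 1.00, unadjusted p = 0.0294), and it was the only gene of the 7 with an unadjusted p under 0.05, against 2.3% of all genes in either direction and 1.21% higher in the labelled group. Fold changes were above 0 for 5 of the 7 and for 50.6% of all genes. S100a8 averaged 1.15 ± 1.81 CPM (1.91, SE 1.05) and Mrc1 7.31 ± 6.23 CPM (0.95, SE 0.55). By edgeR 0 of the 7 and 0% of all genes passed the adjusted threshold. Without Rnf20-labelled replicate 8 the fold change was 0.25 for S100a9 and 0.36 for S100a8. Across the 3 groups together, edgeR's F test gave an unadjusted p of 0.0330 for Mrc1, 0.0394 for Lyz2 and 0.0422 for S100a9, and adjusted p-values of 0.764 to 0.973 for the 7. Of all genes, 6.44% had an unadjusted p under 0.05 in that test.

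Across the 15 libraries 9 of the 21 pairs of these genes had a Pearson's r with an adjusted permutation p under 0.05 (11 by Spearman's rho), and they were the pairs among S100a8, S100a9, Lyz2, Ptprc and Mrc1, except S100a9 with Ptprc (r = 0.56, rho 0.63, permutation p = 0.0304 and 0.0151, adjusted p for r = 0.0744). By r, no pair with Cd163 or Cd3e was among them. Pearson's r of log2 CPM was 0.93 between S100a8 and S100a9 (Spearman's rho 0.91; 0.91 without the 2 libraries farthest from the median). It was 0.94 between Lyz2 and Ptprc (rho 0.88; 0.91 without 2), 0.90 between Lyz2 and Mrc1 (rho 0.90; 0.82) and 0.87 between Ptprc and Mrc1 (rho 0.94; 0.83). Each of these had a permutation p of 1e-05 for r, the smallest that 100000 resamples can give, and an adjusted p of 9.8e-05 over the 49 relations computed. Permutation p-values for rho ran from 1e-05 to 4e-05. The deviations from group means were correlated about as closely, at r = 0.90, 0.92, 0.88 and 0.86 in that order.

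The neutrophil pair was also correlated with Mrc1, at r = 0.79 for S100a8 (rho 0.85, permutation p = 0.00055, adjusted 0.00337; rho p = 0.00016; 0.78 without the 2 farthest libraries) and 0.75 for S100a9 (rho 0.73, permutation p = 0.00128, adjusted 0.0057; rho p = 0.00318; 0.70 without 2). S100a8 was correlated with Ptprc at r = 0.72 (rho 0.80, permutation p = 0.00272, adjusted 0.00998; rho p = 0.00059; 0.70 without 2). With Lyz2 the pair had r = 0.78 for S100a8 (rho 0.76, permutation p = 0.00084, adjusted 0.00457; rho p = 0.00184) and 0.66 for S100a9 (rho 0.62, permutation p = 0.00764, adjusted 0.0234; rho p = 0.0166). Without the 2 farthest libraries these were 0.76 and 0.60. The r and p-values over all 15 libraries also hold the difference between groups, through which the pair passed the low-count filter. For deviations from group means r was lower, at 0.71 (S100a8) and 0.63 (S100a9) with Mrc1. It was 0.63 between S100a8 and Ptprc, and with Lyz2 0.68 for S100a8 and 0.51 for S100a9. The libraries highest in the pair were Rnf20-labelled replicate 8 and scrambled trained replicate 10, while those highest in Lyz2 were scrambled trained replicates 15 and 10 and Rnf20-labelled replicate 18. Replicate 15, highest of all for Lyz2, Ptprc, Mrc1 and Cd163, had 1.32 CPM of S100a9, the lowest of its group. Cd163 followed Ptprc at r = 0.60 (permutation p = 0.0178, adjusted 0.0512) and rho 0.64 (permutation p = 0.0117, adjusted 0.0358). Only rho thus passed an adjusted p of 0.05. Without the 2 farthest libraries r was 0.37, over a narrower range of Ptprc. Cd3e had r between -0.18 and 0.05 with the other 6 genes, with permutation p-values of at least 0.510, and rho between -0.24 and 0.11 (p at least 0.397).

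**Figure D3:**
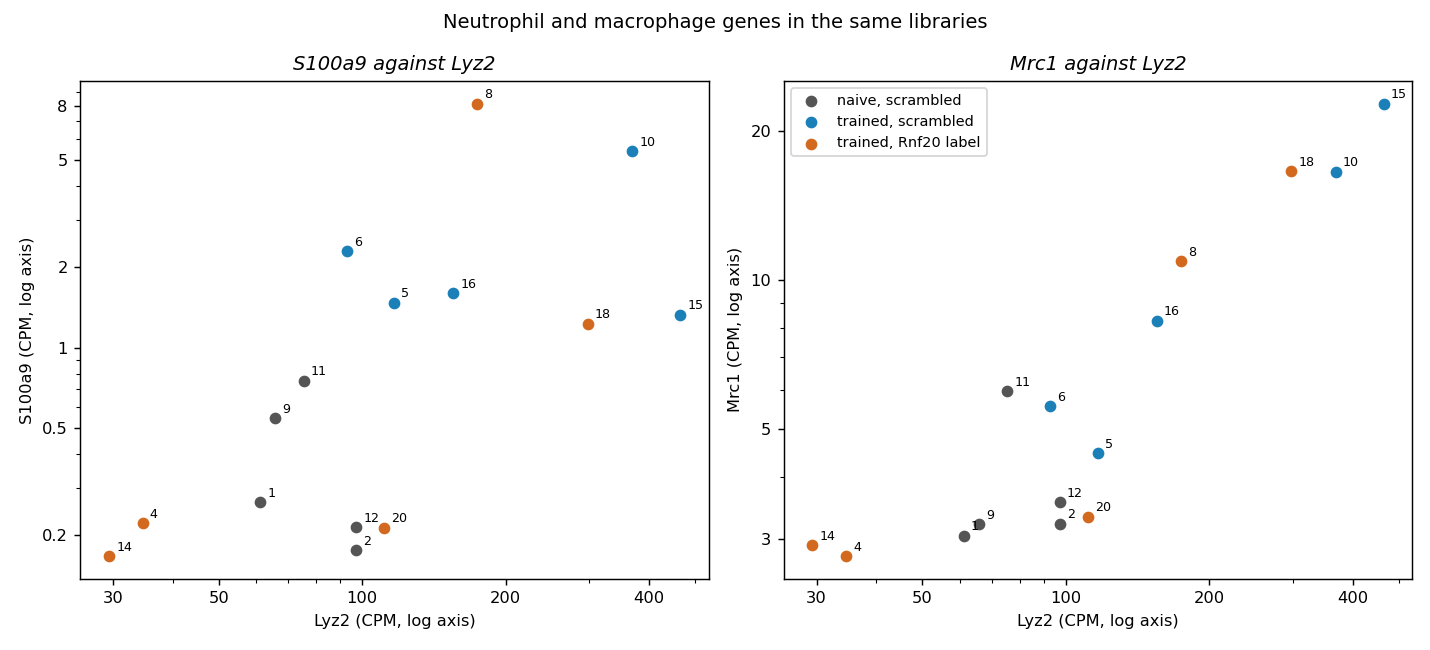
CPM of S100a9 (left) and Mrc1 (right) against CPM of Lyz2, all on log axes, with a point for each library and its replicate number. Mrc1 rises with Lyz2 in the upper range (r = 0.90 over all libraries), and lies at 2.77 to 5.96 CPM where Lyz2 is at 29.4 to 111 CPM. For S100a9, Rnf20-labelled replicate 8 lies above libraries of like Lyz2 level. Scrambled trained replicate 15, highest in Lyz2, is at 1.32 CPM of S100a9, near Rnf20-labelled replicate 18 at 1.23 CPM.

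By likeness of pattern, the genes with the highest r over the 15 libraries were sorted out for each of the 7, as a description. S100a8 and S100a9 were each other's closest gene, followed for both by Zwilch, a part of the mitotic checkpoint complex at kinetochores (r = 0.90 and 0.92), and then by Cdkn3, a cell cycle phosphatase (0.90 with S100a8), and Scimp, an immune membrane adaptor (0.89 with S100a9). Lyz2 was closest to Gpnmb, a glycoprotein of lipid-laden phagocytes (0.98), to Capg, an actin-capping protein of macrophages, and to Bcl2a1, a survival factor of haematopoietic cells (0.97 each). Ptprc was closest to the lysosomal progranulin gene Grn (0.98), to Vav1, an exchange factor of haematopoietic cells, and to the myosin gene Myo1f (0.97 each). Mrc1 was closest to Skap2, a leukocyte adaptor, Pdpn, encoding podoplanin, and Mfsd1, a lysosomal transporter (0.96 each). Cd163 was closest to Tmco6 (0.88), to Ch25h, which makes an oxysterol (0.85), and to Tnfsf13b, the B cell factor BAFF (0.85). For Gpnmb, values ran from 23.2 to 873 CPM, with scrambled trained replicate 15 highest and Rnf20-labelled replicate 14 lowest, as for Lyz2 itself at its 2 ends.

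Cd3e was closest to Galnt18 (r = 0.90), Wfs1 (0.89) and Cdc40 (0.88), and Wfs1 is a marker of CA1 pyramidal neurons. Without the 2 libraries farthest from the Cd3e median, r with Wfs1 was 0.82. Wfs1 was at 327, 456, 195, 331 and 597 CPM in the naive replicates, 528, 1020, 132, 383 and 448 CPM in the scrambled trained replicates and 323, 395, 531, 248 and 310 CPM in the Rnf20-labelled replicates. Scrambled trained replicate 10 and naive replicate 9 were the lowest 2 of all for both genes, and naive replicate 12 and scrambled trained replicate 6 the highest 2.

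The other chains of the same receptor complex were almost without reads. Cd3d, Cd3g and Cd247, encoding the delta, gamma and zeta chains, had 0 to 4, 0 to 8 and 0 to 7 reads per library, and 1 to 15 reads together, in libraries where Cd3e had 57 to 296. Levels of different genes are not compared here because transcript lengths were not used. Across libraries the order of these read counts was not that of Cd3e: scrambled trained replicate 10 had the most reads of the other chains (15) and 70 of Cd3e, while scrambled trained replicate 6 had 4 and 296. The B cell gene Ms4a1 was likewise at the limit, with at most 3 reads in any library.

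**Figure D4:**
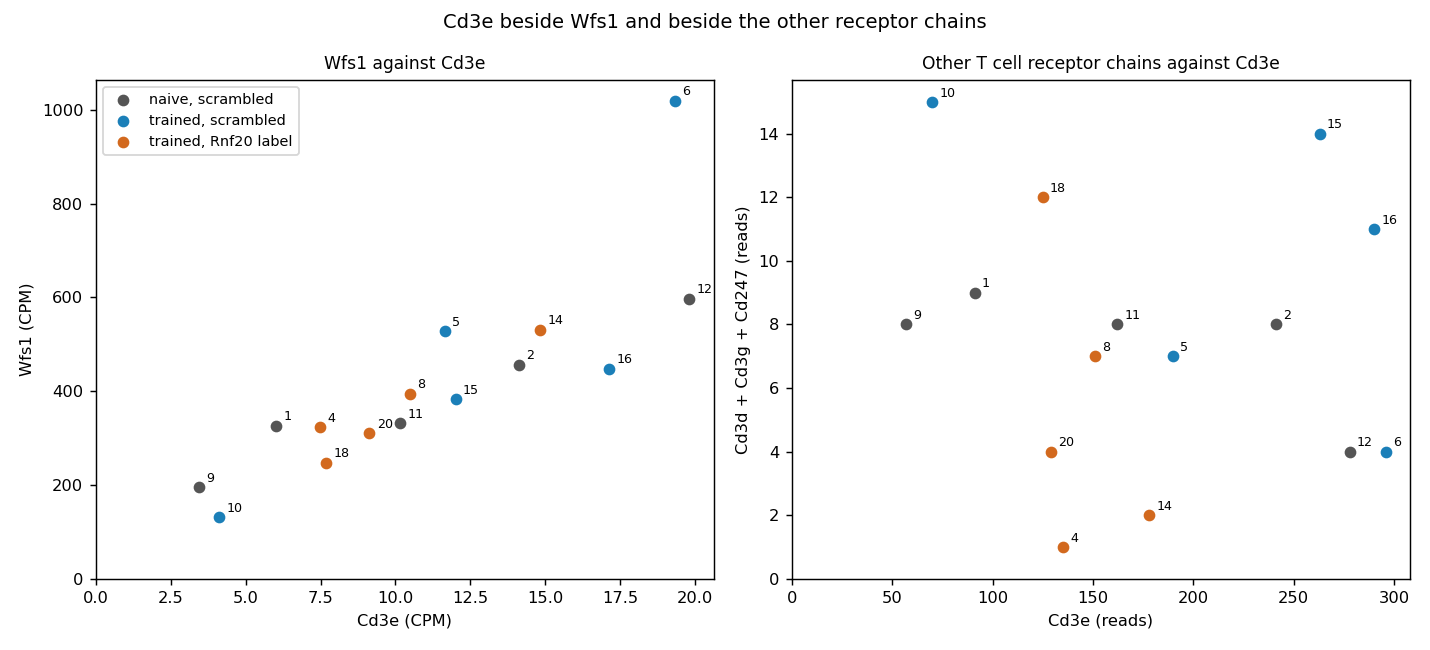
Left, CPM of Wfs1 against CPM of Cd3e; right, reads of Cd3d, Cd3g and Cd247 together against reads of Cd3e; points are libraries with replicate numbers, on linear axes from 0. Wfs1 and Cd3e go up together from scrambled trained replicate 10 to replicate 6, while the other receptor chains stay between 1 and 15 reads.

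Neutrophil genes were measured from a list of 16 that includes S100a8 and S100a9, of which 15 had values and 6 passed the low-count filter. With no filter, 11 of the 15 had a fold change above 0 in trained against naive libraries under scrambled siRNA, with a median of 1.31, and 0 of the 6 tested genes were called by edgeR. Mmp8, the neutrophil collagenase, was at 0 to 0.25 CPM in naive libraries, 0.20 to 2.28 CPM in scrambled trained libraries and 0 to 2.78 CPM in the Rnf20-labelled group (log2 fold change 2.72 in trained against naive, SE 1.05, edgeR adjusted p = 0.423). In Rnf20-labelled replicate 8, the library highest in S100a8 and S100a9, Mmp8 was at 2.78 CPM, the decoy receptor gene Il1r2 at 2.85 CPM and the chemokine receptor gene Cxcr2 at 0.83 CPM. Each of these 3 was the highest of the 15 libraries, and they were chosen after their values were seen. The tested genes of the list did not vary as a unit: across the 15 libraries r with S100a9 was 0.68 for Mmp8 and 0.67 for Csf3r. It was 0.31 for Lcn2 and -0.08 for Mmp9. Granule genes of developing neutrophils were low throughout: over all 15 libraries Ltf had 1 read, Ngp 11, Mpo 38 and Camp 81, with at most 16 in any library. Lcn2, which is on the list but is also made by reactive astrocytes, was at 121 and 109 CPM in scrambled trained replicates 15 and 16 and at 1.50 to 14.7 CPM in the other libraries (2.42, SE 0.87, adjusted p = 0.411).

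The tested genes of the monocyte list, which includes Lyz2, had higher mean values after training. Of 12 listed, 11 had values and 9 were tested, all 9 with a fold change above 0 under scrambled siRNA, as had 47.2% of all genes. Their median was 1.05, with 0 called by edgeR. They did not vary as a unit: across the 15 libraries r with Lyz2 was 0.81 to 0.92 for Vcan, Fn1, Cd14, Itgal and Fcnb. It was 0.34 for Plac8, 0.28 for Spn and -0.33 for Nr4a1. Fn1, encoding fibronectin, had a log2 fold change of 1.18 (SE 0.38, adjusted p = 0.383), and Cd14, a co-receptor for bacterial lipid, was at 12.8 ± 9.30 against 3.33 ± 1.03 CPM (1.94, SE 0.68, adjusted p = 0.399). In Rnf20-labelled against scrambled trained libraries 8 of the 9 were below 0, with a median of -0.83. Both counts use the same scrambled trained libraries, so nothing more is read from the second.

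The tested genes of the border macrophage list, which includes Mrc1 and Cd163, did not vary as a unit. Across the 15 libraries r with Mrc1 was 0.65 to 0.95 for Lyve1, F13a1, Pf4, Siglec1, Folr2, Stab1 and Maf. It was 0.52 for Cd163 and -0.09 for Colec12. Of 14 listed, 12 had values and 10 were tested, 9 of them above 0 under scrambled siRNA (median 1.17) with 0 called by edgeR. Siglec1, a sialic acid receptor, was at 9.72 ± 7.97 against 2.89 ± 1.06 CPM (log2 fold change 1.76, SE 0.58, adjusted p = 0.384). Stab1, a scavenger receptor, was at 44.2 and 42.3 CPM in scrambled trained replicates 10 and 15 and at 61.0 CPM in Rnf20-labelled replicate 18, against 4.18 to 9.85 CPM in naive libraries, and Lyve1, a hyaluronan receptor, at 6.63, 7.26 and 9.16 CPM in those 3 libraries, against 1.35 to 3.45 CPM. Stab1 and Lyve1 were chosen after their values were seen. The list's summed level was 40.5 to 60.7 CPM in naive, 47.5 to 144 CPM in scrambled trained and 32.8 to 151 CPM in Rnf20-labelled libraries.

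**Figure D5:**
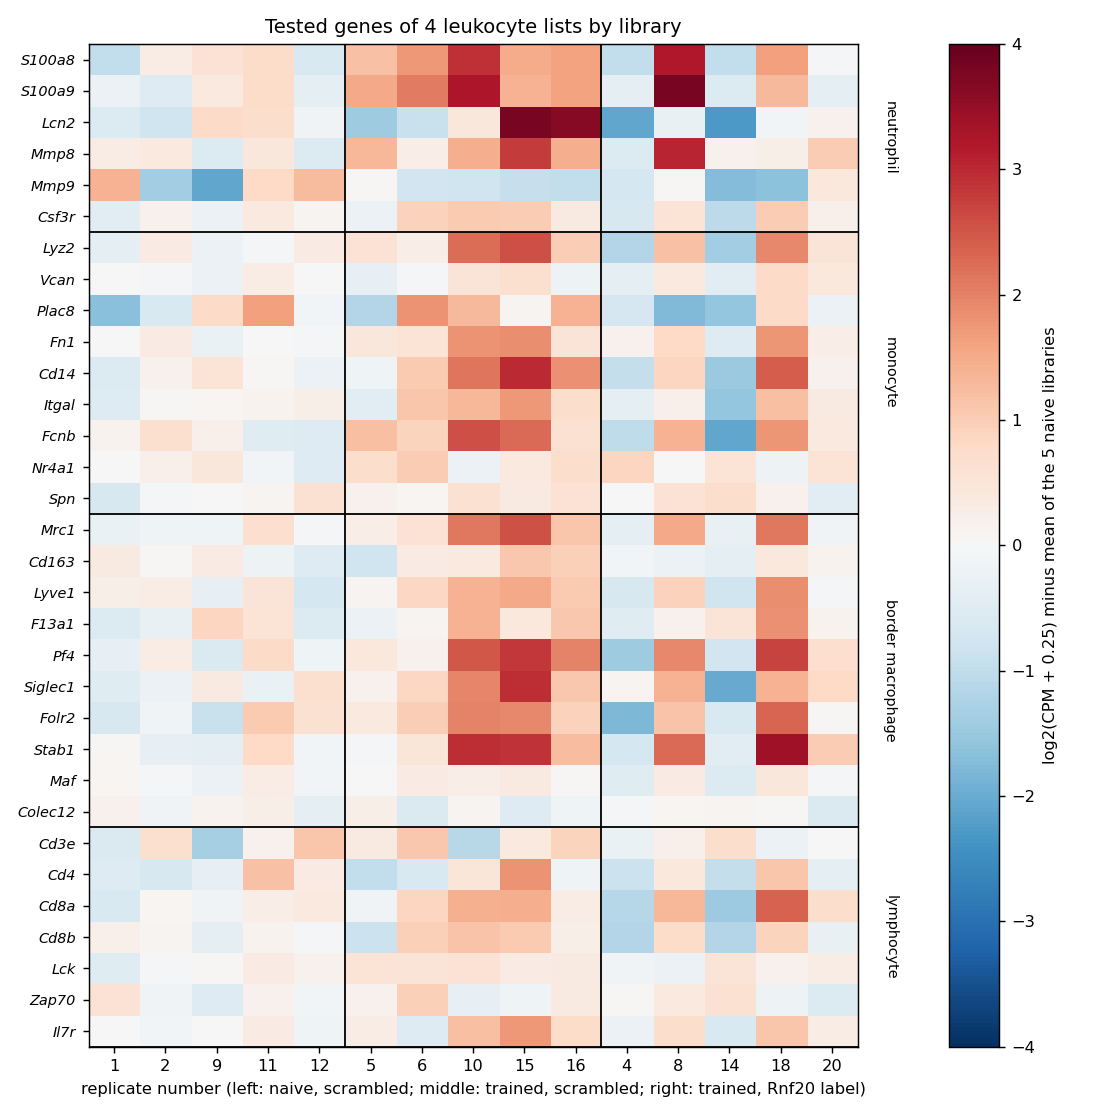
Log2 of CPM + 0.25 minus the mean of the naive libraries (colour) for the 32 tested genes of 4 leukocyte lists (rows) in the 15 libraries (columns, by replicate number within each group). Most monocyte and border macrophage genes are high in scrambled trained replicates 10 and 15 and Rnf20-labelled replicate 18, and S100a8 and S100a9 in scrambled trained replicate 10 and Rnf20-labelled replicate 8.

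Microglia, which share Ptprc with blood leukocytes, were measured beside these genes. The summed level of 12 microglia genes was 517 to 785 CPM in naive, 578 to 1102 CPM in scrambled trained and 455 to 994 CPM in Rnf20-labelled libraries. The median fold change of these 12 was 0.20 under scrambled siRNA, with 0 called by edgeR and 0 at an unadjusted p under 0.05. The purinergic receptor gene P2ry12 was at 33.2 ± 2.78 against 29.3 ± 9.42 CPM and Tmem119 at 15.8 ± 3.27 against 20.1 ± 4.56 CPM, both taken as defining markers once their values were known. The smallest p-values belonged to Tyrobp (0.88, SE 0.43, adjusted p = 0.523) and Aif1 (0.62, SE 0.31, adjusted p = 0.528). The mean log2 level of the 12 followed Ptprc at r = 0.93 (rho 0.93), Lyz2 at 0.89 (rho 0.84) and Mrc1 at 0.86 (rho 0.93), with permutation p-values of 1e-05 to 0.00026 and adjusted values for r of at most 0.00014, and without the 2 farthest libraries r was 0.88, 0.81 and 0.87. With S100a8 the list had r = 0.73 (rho 0.75, permutation p = 0.00285, adjusted 0.00998, rho p = 0.0021), and 0.57 without the 2 farthest libraries. With S100a9 r was 0.57 (rho 0.56, permutation p = 0.0267, adjusted 0.0687). The part of microglia in the values of Ptprc, Lyz2, Mrc1 and S100a8 was not tested.

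Red cell transcripts were measured as a sign of blood in the tissue. All 6 tested genes had fold changes above 0 under scrambled siRNA (median 2.13), with 0 called by edgeR and 6 at an unadjusted p under 0.05, among them the globin genes Hbb (2.00, SE 0.47, adjusted p = 0.379) and Hba-a2 (2.29, SE 0.54, adjusted p = 0.379). Of all genes, 47.2% had a fold change above 0, and 9.97% had such a p in either direction and 6.62% in that direction. All 6 were highest in scrambled trained replicate 6, so they do not count as independent. The summed level of 6 blood genes was 157 to 264 CPM in naive, 225 to 1831 CPM in scrambled trained and 181 to 758 CPM in Rnf20-labelled libraries. It was 1831 CPM in scrambled trained replicate 6, where S100a9 was at 2.29 CPM, and 731 CPM in Rnf20-labelled replicate 8, where S100a9 was at 8.13 CPM. The list's mean log2 level had r = 0.70 with S100a8 (rho 0.77, permutation p = 0.00416, adjusted 0.0136; rho p = 0.00144), 0.77 with S100a9 (rho 0.81, p = 0.00096, adjusted 0.0047; rho p = 0.00042) and 0.72 with Mrc1 (rho 0.66, p = 0.00257, adjusted 0.00998; rho p = 0.00974). These were 0.67, 0.75 and 0.90 without the 2 farthest libraries, and 0.55, 0.62 and 0.57 for deviations from group means. In scrambled trained replicate 5, whose blood sum of 225 CPM lay inside the naive range, S100a8 was at 0.86 CPM (14 reads) and S100a9 at 1.47 CPM (24 reads), above every naive library. Rnf20-labelled replicates 14 and 20 also had sums inside that range (236 and 181 CPM), with S100a8 at 0 and 0.21 CPM and S100a9 at 0.17 and 0.21 CPM. These libraries were picked with their values in view. The part of blood in the neutrophil values was not tested. Choroid plexus and meningeal levels, other sources of macrophages next to the hippocampus, had r of -0.04 to 0.15 and -0.01 to 0.43 with the 6 genes other than Cd3e, with rho of -0.06 to 0.18 and -0.0036 to 0.40, permutation p-values of at least 0.107 and adjusted values of at least 0.194. For deviations from group means r was higher, at 0.27 to 0.52 and 0.001 to 0.71, with the meningeal list at 0.71 for S100a9 and 0.66 for Mrc1. Leaving out the 2 farthest libraries, the pooled r was 0.05 to 0.27 and -0.13 to 0.24. Cd3e had r of -0.34 and -0.45 with these lists (permutation p = 0.218 and 0.0917). The part of these tissues in the values was not tested.

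Ligands and partners of the 7 genes were read from lists fixed by name. Of 18 chemokines and colony stimulating factors, 11 were tested, 7 above 0 under scrambled siRNA with a median of 1.80 and 0 called by edgeR. Ccl7, a ligand of the monocyte receptor CCR2, was at 0.20, 0.29, 1.52, 0.31 and 0.21 CPM in the naive replicates and 0.98, 1.11, 6.28, 17.6 and 5.26 CPM in the scrambled trained replicates (log2 fold change 3.60, SE 0.93, adjusted p = 0.379). Naive replicate 9 overlapped the trained range. Cxcl10, a ligand that draws T cells, was at 8.58 ± 9.91 against 1.79 ± 0.83 CPM (2.26, SE 0.68, adjusted p = 0.379), with scrambled trained replicate 15 at 25.0 CPM. Ccl2, the main CCR2 ligand, which was picked with its values in view, was at 34.4 CPM in the same library and at 0.57 to 4.79 CPM in naive libraries.

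Of 10 tested receptors and signalling genes of the S100A8 and S100A9 pair, 5 were above 0 (median 0.12), and the adaptor gene Myd88 had the smallest p (log2 fold change 0.63, SE 0.21, adjusted p = 0.384). Of 12 tested genes of CD45 signalling, a list that includes Ptprc itself, 11 were above 0 (median 0.78), among them the galectin gene Lgals3 (2.45, SE 0.80, adjusted p = 0.383). Of 8 tested genes of haemoglobin clearance, the pathway that CD163 opens, all 8 were above 0 (median 0.34), Cd163 itself included. Hmox1, the haem oxygenase, was at 65.2, 28.1, 798, 1066 and 425 CPM in the scrambled trained replicates and 24.6 to 62.3 CPM in naive libraries (3.38, SE 1.11, adjusted p = 0.384), and at 8.25, 341, 14.3, 750 and 81.1 CPM in the Rnf20-labelled replicates. Its lowest scrambled trained value was in replicate 6, the library with the most red cell transcripts. Scrambled trained replicates 10 and 15, next in those transcripts (1107 and 810 CPM), had the highest Hmox1 values, and the part of blood in Hmox1 was not tested. Blvrb, a biliverdin reductase, had a fold change of 0.40 (SE 0.12, adjusted p = 0.379). Of 9 tested vascular adhesion genes 5 were above 0 (median 0.10), with Cdh5 at -0.22 (SE 0.12, adjusted p = 0.570) and Itgb1 at 0.23 (SE 0.13, adjusted p = 0.580). By edgeR 0 genes of these 4 lists were called.

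Among the remaining lists, 18 lymphocyte genes had values and 7 were tested. Cd3d, Cd3g, Cd247, Cd2, Cd5 and the B cell genes did not pass the low-count filter. All 7 tested genes, Cd3e included, were above 0 under scrambled siRNA (median 0.50), as were 47.2% of all genes. Il7r, the interleukin-7 receptor, was at 0.94 (SE 0.39, adjusted p = 0.447) and Lck, a T cell kinase, at 0.50 (SE 0.21, adjusted p = 0.453). Across the 15 libraries r with Lyz2 was 0.72 to 0.91 for Cd4, Cd8a, Cd8b and Il7r, and -0.35 to 0.26 for Cd3e, Lck and Zap70. The list did not vary as a unit, so no rise in lymphocytes is read from it. All 14 tested genes shared by leukocytes and microglia, Ptprc included, were above 0 (median 0.78). Arhgdib (0.95, SE 0.34) and Lcp1 (1.06, SE 0.38) had the smallest p (adjusted p = 0.408 for both). In Rnf20-labelled against scrambled trained libraries all 14 were below 0 (median -0.59), and since the scrambled trained libraries are the same, nothing more is read from that count. By edgeR 0 of these genes were called.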

How the data were processed

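Per the submitters' processing notes, Trim Galore, FastQC and featureCounts 2.0.1 were used, with Rnor_6.0 as the genome build. For the aligner, annotation release and strand setting, nothing was given in the sources used here. Per the labels' protocols, libraries came from a stranded poly(A) kit with 14 PCR cycles. The deposited raw table holds counts, and the deposited normalised signal table equals those counts over DESeq2 size factors (0 genes differing at a relative tolerance of 1e-06) and was not used further. The counts went into edgeR 4.0.16 under R 4.3.3: filterByExpr (minimum count 10), TMM scaling, a quasi-likelihood F test with robust dispersions on all 15 libraries (12 residual degrees of freedom) and Benjamini-Hochberg adjustment over 14880 genes, tested on simulated data first. No other column of sample values was present. Correlations used log2 CPM with a prior count of 2; 49 were computed, 21 between members and 28 with marker lists, where 60 had been planned with Ccr2.

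Alternatives were DESeq2 1.42.0, limma-voom (limma 3.58.1) with and without quality weights, other scalings and filters, 1 surrogate variable (sva 3.50.0), only the groups compared, and each library left out. Tests were two-sided. The members and lists were chosen with earlier results of these data known. All 7 members with values are named. From each list the called genes, or else the 2 of smallest p in trained against naive libraries, are named. For each member the 3 genes of highest r are named. Genes outside this rule are marked where they appear, and some items that it would name are not reported here.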

Additional observations from a re-analysis of the deposited data

Results flagged for a closer look

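In groups of 5 libraries, a sample was singled out where its gap to the nearest other sample exceeded 0.71 of the group's range (Dixon's 95% value). Of the 21 groups of 5 checked (7 genes in 3 groups), 4 held such a sample, and chance gives about 1 in 20 groups. S100a9 was at 8.13 CPM in Rnf20-labelled replicate 8, with the next library at 1.23 CPM (gap over range 0.867). S100a8 was at 3.46 CPM and S100a9 at 5.40 CPM in scrambled trained replicate 10, with the next at 1.37 and 2.29 CPM (0.802 and 0.764). Mrc1 was at 5.96 CPM in naive replicate 11, with the next at 3.56 CPM (0.822).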

How the results depend on the processing

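By edgeR 0 of the 7 genes passed an adjusted p of 0.05 in any comparison, and 0 did under any alternative run. Genes called in trained against naive libraries under scrambled siRNA, 0 by edgeR, were 53 by DESeq2 and 2 with 1 surrogate variable. In Rnf20-labelled against scrambled trained libraries DESeq2 called 1 gene, and in labelled trained against naive libraries it called 1, as did edgeR without naive replicate 9 (0 to 1 over the libraries left out). At an unadjusted p under 0.05 edgeR had 1484, 835 and 342 genes in the 3 comparisons. The number of correlations with adjusted p under 0.05 was 16 with either prior count, 2 or 0.5. Over all alternatives, 522 member fold changes kept their sign and side of the threshold and 19 changed sign, none in trained against naive libraries under scrambled siRNA. In labelled trained against naive libraries, Cd3e (-0.11) was 0.073 by limma-voom and 0.13 with quality weights, and -0.34 to 0.23 with libraries left out; S100a8 (1.91) was -0.11 and Ptprc (0.32) -0.082 with quality weights. With libraries left out, Ptprc was -0.056 to 0.53 and Cd163 (-0.05) -0.24 to 0.071. In labelled against scrambled trained libraries, S100a9 (-0.28) was 0.11 with 1 surrogate variable and 0.66 with the 4 libraries at the ends of the first component removed, and -2.34 to 0.27 with libraries left out; S100a8 (-0.49) was 0.33 with those 4 removed and -2.03 to 0.0099 with libraries left out. The causes were not tested. Under the stricter filter, and for S100a8 and S100a9 in some fits of 2 groups, members outside the filter gave no value. Leaving out groups of libraries and the unfiltered list counts were chosen after seeing the data. No paired analysis was possible because the groups share no replicate number. Depth limits S100a8, S100a9 and Cd163, with at most 117 reads in any library.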

Other observations

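Other cell types of the dissected tissue were measured from marker lists in trained against naive libraries under scrambled siRNA, and edgeR called 0 genes of any. Gfap, the astrocyte filament gene, had a log2 fold change of 0.77 (SE 0.24, adjusted p = 0.380), while Aldh1l1 was at -0.15 (SE 0.09, adjusted p = 0.610), and 3 of the 6 astrocyte genes were above 0. All 6 oligodendrocyte genes were below 0 (median -0.26), among them Opalin at -0.71 (SE 0.17, adjusted p = 0.379) and Mog at -0.25 (SE 0.17, adjusted p = 0.655). All 4 endothelial genes were below 0 (median -0.24), including the VEGF receptor gene Kdr at -0.41 (SE 0.11, adjusted p = 0.379) and Cdh5 at -0.22.

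All 8 choroid plexus genes were below 0 (median -0.92), with Slc4a5 at -1.12 (SE 0.74, adjusted p = 0.642) and Kcne2 at -0.93 (SE 0.63, adjusted p = 0.647). Of 8 meningeal genes 5 were above 0 (median 0.01), with Igf2 at -0.65 (SE 0.64, adjusted p = 0.762) and Crabp2 at 0.30 (SE 0.55, adjusted p = 0.886). Of 6 CA1 neuron genes 2 were above 0 (median -0.07), with Slc17a7 at -0.22 (SE 0.16, adjusted p = 0.674) and Wfs1 at 0.40 (SE 0.40, adjusted p = 0.769).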
